A study of Caenorhabditis elegans with 2 samples.

Results

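The FMRFamide-like peptide (flp) genes of Caenorhabditis elegans were compared between 1 library of a flp-6 mutant and 1 library of the wild type. They were taken as all genes whose symbol is flp followed by a number, which gave 31 of the 46233 genes with a deposited value. Both libraries were made from total RNA of whole animals labelled as fourth-stage (L4) larvae and kept at 25 °C. The wild type was strain N2 and the mutant was strain VC2324, labelled only as a flp-6 mutant, and no allele, outcrossing or number of pooled animals is stated for it there. With 1 library of each genotype, no difference below has a replicate check and none was tested. Each is a difference between these libraries.

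Each flp gene encodes a precursor protein that is cut into one or several short peptides ending in an amidated arginine and phenylalanine. The precursors travel in dense-core vesicles, where the convertase EGL-3 cuts them at basic residues, the carboxypeptidase EGL-21 trims the ends and amidating enzymes finish the peptide. The released peptides act on G protein-coupled receptors of neurons, muscle, gonad and intestine, and single members are known for roles in sleep, egg laying, feeding, locomotion and mating. The flp-6 gene is expressed in sensory neurons, among them the AFD thermosensory neurons, in which it has been linked to lifespan at warm temperature.

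Levels are given in FPKM, fragment numbers divided by transcript length and library size, which allows genes of different length to be set beside each other. A difference is the log2 of mutant over N2 after 1 FPKM is added to each value, so that -1 stands for a 2-fold lower level, and it understates the ratio of genes at low levels. Genes with a mean over both libraries of at least 1 FPKM were compared, which held for 30 of the 31 flp genes and for 13436 genes in all. The remaining member, flp-23, was listed at 0.154 FPKM in N2 and at the placeholder of 0.0001 FPKM in the mutant library, and it is not counted below.

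The libraries differed broadly in ways that touch these genes. Over all genes the FPKM sum was 989473 for the mutant and 1414572 for N2, and the sequencing depth is unknown. The median difference of the 13436 genes was -0.10, and differences went with transcript length, as described below. Body wall muscle markers were higher in the mutant library in 8 of 8 cases, with a summed level of 2433 FPKM against 1632 in N2. Of 11 sperm markers, 7 were measured and 7 of these were higher, with a summed level of 414.9 FPKM against 197.0 over the whole list. Adult markers were present under the larval label, since the adult cuticle collagen col-19 had 1057 FPKM in the mutant library and 1357 in N2, and the 6 vitellogenins summed to 8890 and 14875 FPKM. The part of these differences in the flp values was not tested.

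The targeted gene stood apart from the rest of its family. The flp-6 gene (WBGene00001449; WBcel235 chromosome V, 9471975 to 9473792, forward strand) had 57.95 FPKM in the N2 library and 4.40 FPKM in the mutant library. It was thus the second most abundant flp transcript in N2 and stood at rank 20 in the mutant library. It made up 10.4% of the summed flp level in N2 and 1.44% in the mutant library. Its difference was -3.45, and the next lowest member, flp-19, stood at -1.81. Its neighbours, both at low levels, did not share this. The nearest upstream protein-coding gene, F07D3.3, had 2.17 FPKM in the mutant library against 0.574 in N2, and the nearest downstream one, nas-3, an astacin metalloprotease, had 0.806 against 1.18 FPKM, a mean under 1 FPKM. The labels do not state which part of flp-6 is altered, and the origin of the remaining 4.40 FPKM was not tested.

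**Figure D1:**
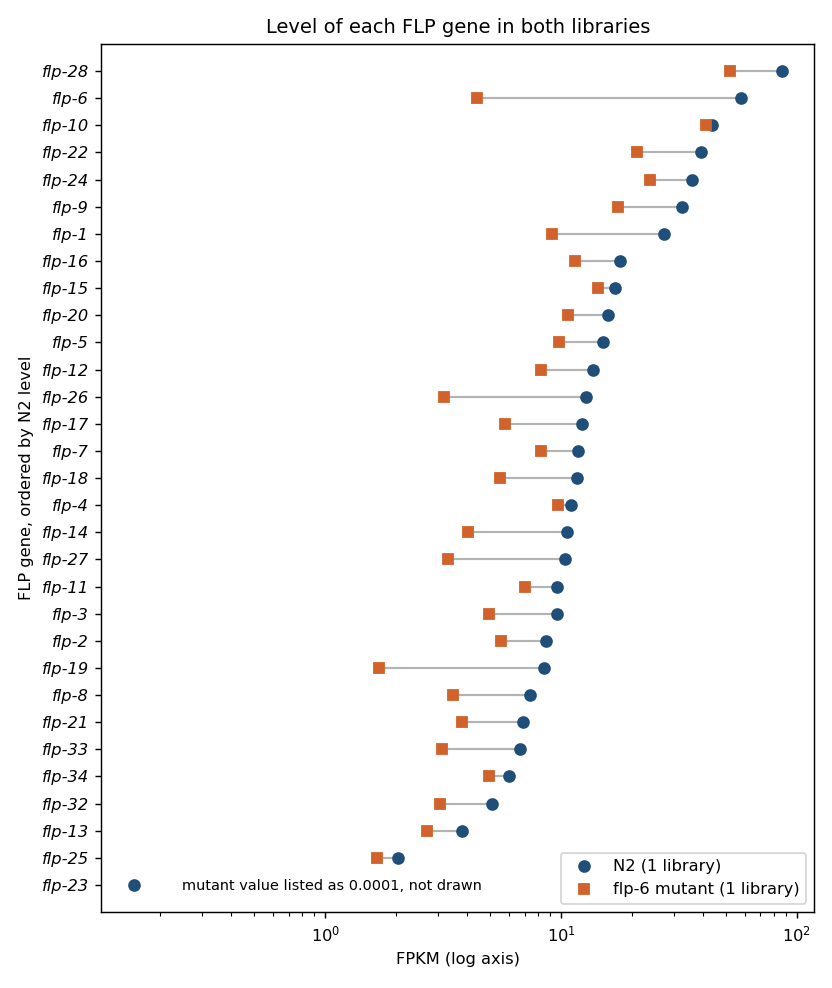
Level of each of the 31 flp genes in FPKM on a log axis, ordered by the N2 value, with circles for the N2 library and squares for the flp-6 mutant library (1 library each, no error bars). The mutant square lies left of the N2 circle for every gene drawn with both, from flp-10 at 41.1 against 43.8 FPKM to flp-6 at 4.40 against 57.95 FPKM, and the mutant value of flp-23, listed as 0.0001 FPKM, is not drawn.

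The family covered a wide range of levels, and its order was largely shared by the libraries. In N2 the measured members ran from 2.03 FPKM for flp-25 to 86.5 FPKM for flp-28, with a median of 11.7 FPKM. In the mutant library they ran from 1.65 to 52.2 FPKM, between the same genes, with a median of 5.66 FPKM. The 5 most abundant members held 47.2% of the summed flp level in N2 and 50.9% in the mutant library. In N2 these were flp-28, flp-6, flp-10, flp-22 and flp-24, and in the mutant library flp-9 took the place of flp-6. Across the 29 measured members other than flp-6, Spearman's rho of the levels in the libraries was 0.898, a description over genes that share both libraries. Of all 31 members, 8 moved by 5 or more ranks. Besides flp-6 these included flp-26, from rank 13 in N2 to 25 in the mutant library, and flp-19, from 23 to 29, while flp-4 stood at rank 17 in N2 and 10 in the mutant library and flp-34 at 27 and 19.

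All 30 measured members were lower in the mutant library as deposited, and 22 of 30 were with the libraries scaled to an equal FPKM sum. Lower values of any size were found for 55.7% of all 13436 genes as deposited and for 32.3% after that scaling. The summed level of the 31 genes was 305 FPKM in the mutant library and 557 FPKM in N2, or 54.8% of the N2 value, where the sum over all genes was 69.9% of its N2 value. Without flp-6 the flp sum was 60.3% of that in N2, since flp-6 made up 21.2% of the whole shortfall and flp-28 another 13.6%. As a share of the FPKM of all genes, the flp genes held 0.0309% in the mutant library and 0.0394% in N2, and 0.0304% and 0.0353% without flp-6. The median difference was -0.69, and it was -0.67 without flp-6.

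At least 2-fold lower levels were seen for 6 of the 30 members (20% of them, against 11.3% of all genes), and 0 members were at least 2-fold higher (against 10.5% of all genes). Besides flp-6 the lower members were flp-19, flp-26, flp-1, flp-27 and flp-14. The flp-19 gene had 1.70 FPKM in the mutant library and 8.43 FPKM in N2, a difference of -1.81. The flp-26 gene had 3.19 against 12.7 FPKM, a difference of -1.71. The count depended on the low levels of these genes, because flp-17 at -0.97 and flp-18 at -0.97 lay just inside 2-fold and flp-14 at -1.21 was the closest beyond it. By the plain ratio of FPKM values, with nothing added, 10 members were at least 2-fold lower, the other 4 being flp-8, flp-17, flp-18 and flp-33. The share of all genes past 2-fold by the plain ratio was not counted. With 0.1 FPKM added in place of 1, 10 members and 14.2% of all genes were at least 2-fold lower.

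The family is one of short transcripts, and short transcripts were lower in the mutant library in general. The longest annotated transcripts of the measured members had 422 to 973 nt with a median of 637 nt, against a median of 1256 nt for all 13436 genes. Among the 3326 protein-coding genes in this range of lengths, the median difference was -0.52, 73.3% were lower by any amount, 22.5% were lower by 2-fold or more and 10.8% were higher by that much. The 20% of flp genes past 2-fold was thus close to the share of genes of like length. The flp genes without flp-6 had a median of -0.67, with quartiles of -0.90 and -0.47, against quartiles of -0.96 and 0.06 for the genes of like length. Their differences were also less spread, with an SD across the 29 genes of 0.45 against 0.93. The genes of like length ran from -11.78 to 8.35 and included 11 at the placeholder in the mutant library and 9 in N2. Each of the 29 flp genes was above the placeholder in both libraries.

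**Figure D2:**
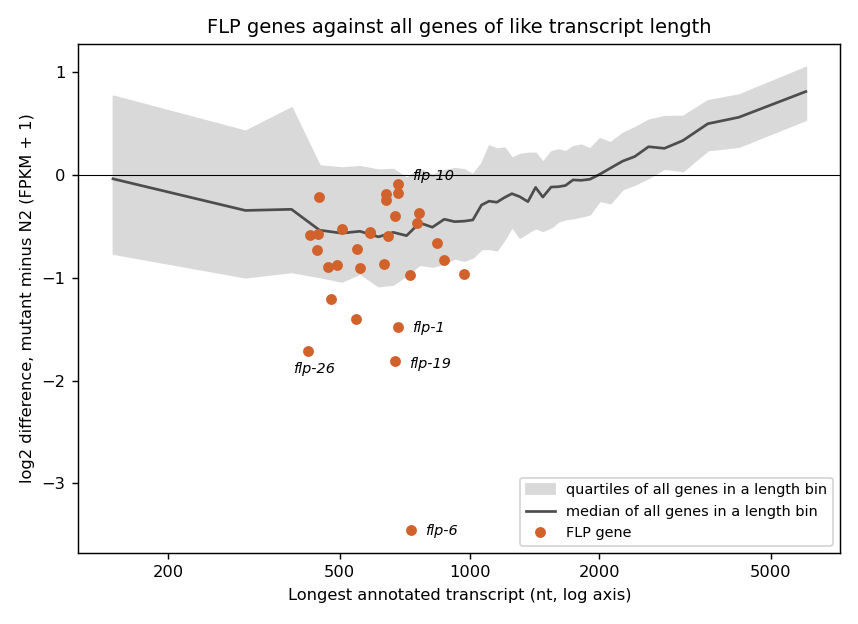
Difference of each measured flp gene (circles; log2 of mutant over N2 FPKM, 1 added to each) against the length of its longest annotated transcript in nt on a log axis, with the median (line) and quartiles (grey band) of all genes in 40 length bins of equal size. The flp genes sit between 422 and 973 nt, where the median of all genes is itself below 0, and flp-6 at -3.45 lies far under the band.

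To set the members against genes of like length, the median of the genes in the same of 40 length bins was taken away from each difference. After this centring, 20 of the 30 members stayed below 0, 9 were above it and 1, flp-7, was the median gene of its bin, against 49.9% of all 12999 genes below 0. The median of the family was -0.16, and it was the same to 2 decimals without flp-6. At least 2-fold lower values were left for 3 members, against 3.16% of all genes, and 0 members were at least 2-fold higher, against 10.9% of all genes. These 3 were flp-6 at -2.86, flp-19 at -1.25 and flp-26 at -1.17. The members flp-1 at -0.92 and flp-27 at -0.86 came next. At the other end, flp-10 stood at 0.47, flp-4 at 0.39, flp-25 at 0.37, flp-15 at 0.32 and flp-34 at 0.32, so the direction of these members turned with the centring. Within the family, Spearman's rho of the uncentred difference with length was 0.15 across the 29 members other than flp-6. The members span only 422 to 973 nt, where the bin medians of all genes lay between -0.60 and -0.43. Over so narrow a range the value cannot show whether length bears on the members.

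**Figure D3:**
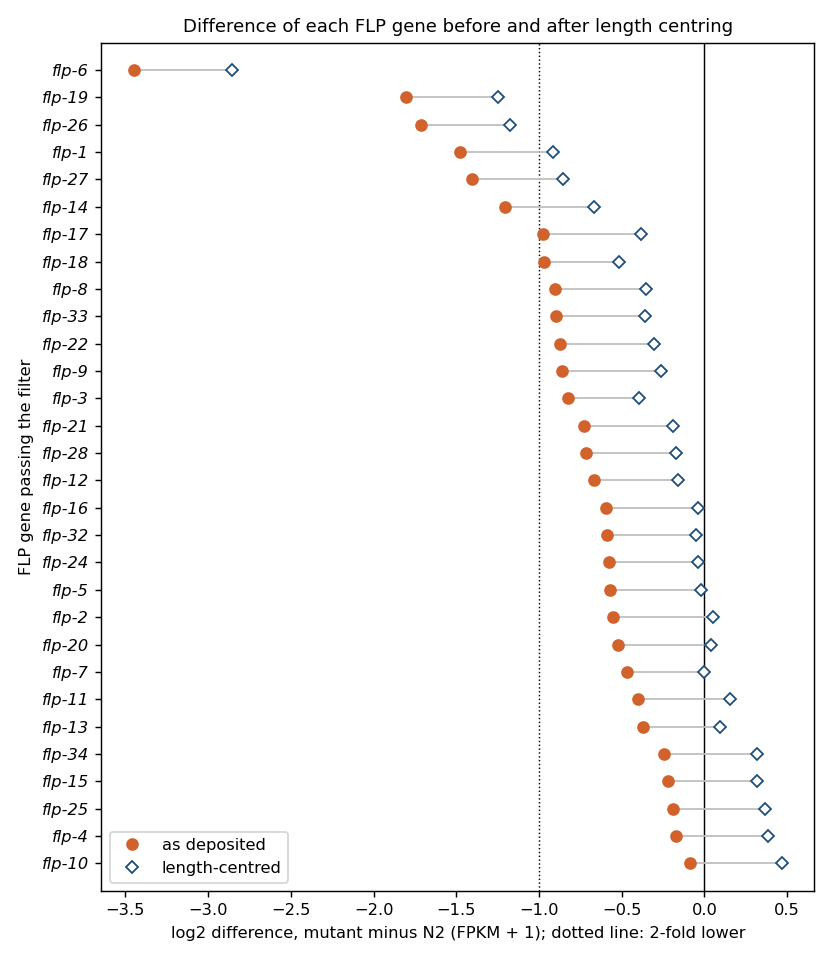
Difference of each of the 30 measured flp genes as deposited (filled circles) and after subtraction of the median of genes of like transcript length (open diamonds), on the log2 scale with 1 FPKM added, where the dotted line marks a 2-fold lower level. As deposited every circle lies below 0 and 6 lie at or past the dotted line, and after centring 3 diamonds do, those of flp-6, flp-19 and flp-26.

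Among members with a known part in egg laying, the values were far apart. The flp-1 gene, which encodes peptides of the AVK interneurons and acts in locomotion and egg laying, had 9.14 FPKM in the mutant library and 27.2 FPKM in N2, a difference of -1.48. The flp-10 and flp-17 genes encode peptides that inhibit egg laying through the receptor EGL-6. Of this pair, flp-10 had the smallest difference of the measured family at -0.09, with 41.1 FPKM in the mutant library and 43.8 FPKM in N2, whereas flp-17, expressed in the BAG sensory neurons, had 5.76 against 12.3 FPKM.

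The members known for sleep were close to one another and within 2-fold. The flp-11 gene, whose peptides are released by the sleep-promoting RIS neuron, had 7.06 FPKM in the mutant library and 9.64 FPKM in N2. The flp-13 gene, which acts in the ALA neuron in stress-induced sleep, had 2.70 against 3.80 FPKM. The flp-24 gene, also of ALA, had 23.7 against 35.9 FPKM. Their differences ran from -0.58 for flp-24 to -0.37 for flp-13, a narrower range than in the egg laying group, and after length centring from -0.04 for flp-24 to 0.16 for flp-11.

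The members linked to feeding, foraging and fat were also within 2-fold with 1 FPKM added. By the plain ratio, flp-18 was 2.13-fold lower. The flp-18 gene, whose peptides bind NPR-1, NPR-4 and NPR-5 and act on foraging and fat storage, had 5.50 FPKM in the mutant library and 11.7 FPKM in N2. The flp-21 gene, another source of NPR-1 ligands, had 3.79 against 6.91 FPKM. The flp-7 gene, whose peptides drive fat loss through NPR-22 in the intestine, had 8.26 against 11.8 FPKM. Their differences were -0.97, -0.73 and -0.47. After length centring flp-18 stood at -0.52, flp-21 at -0.19 and flp-7 at 0.

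Genes known for arousal or male mating were within 2-fold as well with 1 FPKM added. By the plain ratio, flp-8 was 2.12-fold lower. The flp-2 gene, which acts in arousal through FRPR-18, had 5.55 FPKM in the mutant library and 8.60 FPKM in N2. The flp-20 gene, expressed in touch receptor neurons, had 10.7 against 15.9 FPKM. The flp-8 and flp-12 genes, which with flp-10 and flp-20 act in male turning during mating, had 3.50 against 7.42 FPKM and 8.22 against 13.6 FPKM. The differences of these 4 genes ran from -0.90 for flp-8 to -0.53 for flp-20, and after length centring from -0.36 for flp-8 to 0.05 for flp-2. The flp-10 gene, given above, lay outside both ranges, at -0.09 as deposited and 0.47 after centring.

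The most abundant member, flp-28, lies close to 2 others on the X chromosome. It had 52.2 FPKM in the mutant library and 86.5 FPKM in N2, a difference of -0.72. Its neighbours flp-3, at 4.96 against 9.56 FPKM, and flp-2 had much lower levels and differences of -0.83 and -0.55. In WBcel235 flp-28 spans 10087314 to 10087966, flp-3 spans 10091946 to 10092964 and flp-2 spans 10094430 to 10095245, each on the reverse strand of X. All 3 lie within W07E11.1, a gene on the forward strand, with no exon bases in common. W07E11.1 itself was higher in the mutant library, at 24.4 against 7.66 FPKM, a difference of 1.55 that was 0.74 after centring for its transcript length of 7329 nt. The deposited table gave the 3 flp genes 1 shared locus field with W07E11.1, and no label or header says how reads from that interval were divided. The same holds for flp-1, flp-8, flp-11, flp-17 and flp-32, which also shared their locus fields with other genes.

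The remaining members were not grouped by role. Among the abundant ones, flp-22 had 20.97 FPKM in the mutant library and 39.2 FPKM in N2, and flp-9 had 17.5 against 32.6 FPKM, with differences of -0.87 and -0.86. The flp-15 gene, whose peptides activate NPR-3, had 14.4 against 16.9 FPKM, flp-16 had 11.5 against 17.9 FPKM and flp-4 had 9.70 against 11.1 FPKM. These 3 were nearer to equal levels, with differences of -0.22, -0.60 and -0.17. The flp-5 gene had 9.79 against 14.99 FPKM, flp-14 had 4.02 against 10.6 FPKM and flp-27 had 3.31 against 10.4 FPKM. Of these, flp-14 and flp-27 were among the 6 members past 2-fold, with differences of -1.21 and -1.41, and flp-5 stood at -0.57. At the low end, flp-32 had 3.05 against 5.10 FPKM, flp-33 had 3.13 against 6.68 FPKM, flp-34 had 4.93 against 6.02 FPKM and flp-25 had 1.65 against 2.03 FPKM. For such genes the added 1 FPKM reduces the difference, so that flp-33 stood at -0.90 although its plain ratio was 2.13-fold.

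The members were spread over all chromosomes, with like medians on X and on the pooled autosomes. On the X chromosome lie 13 of the 31 genes, and 18 lie on the autosomes. The median difference of the 13 X-linked members was -0.67, and that of the 16 measured autosomal ones without flp-6 was -0.66. For genes of like length the medians were -0.46 on X and -0.53 on the autosomes. Single autosomes hold few members, and their medians were further apart, at -0.88 for the 2 genes on I, -0.86 for the 5 on IV and -0.40 for the 4 measured on III, or -0.33, -0.26 and 0.14 after length centring. The X-linked members ranged from -1.81 for flp-19 to -0.40 for flp-11, and the autosomal ones other than flp-6 from -1.48 for flp-1 to -0.09 for flp-10. Members with more than 1 annotated transcript, of which 10 were measured, had a median of -0.56. The 20 with 1 transcript, flp-6 among them, had a median of -0.78, and all genes were not split in this way.

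Exons of 5 members share bases with a protein-coding gene or a noncoding RNA on the opposite strand, piRNA loci left aside, and whether strand was used in counting is not stated. The shared part was 21 bases of flp-8 with F31F6.11, 17 bases of flp-11 with tmem-135, 14 bases of flp-16 with romo-1, 8 bases of flp-33 with ntr-1 and 5 bases of flp-19 with abl-1, at most 2.94% of a member's exon bases. Of the partners, romo-1 was far above its flp neighbour in level, at 218.5 FPKM in the mutant library and 376.0 FPKM in N2, and lower in the mutant library as flp-16 was. The partners tmem-135, at 22.9 and 18.4 FPKM, and abl-1, at 2.91 and 1.66 FPKM, were higher in the mutant library, opposite to flp-11 and flp-19.

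The genes that process and release these peptides lay on both sides of 0, with a median nearer to 0 than that of the flp genes as deposited but not after length centring. Of 16 measured members of a list of processing and dense-core vesicle genes, 11 were lower by any amount and 5 higher. A 2-fold lower level was reached by 1 of them and a 2-fold higher level by 0, and the median was -0.16, which turned to 0.24 at an equal FPKM sum and to 0.044 at an equal upper quartile. The lowest were pgal-1, an amidating enzyme, at 9.63 FPKM in the mutant library and 22.1 FPKM in N2, and sbt-1, the 7B2-like chaperone of EGL-3, at 35.2 against 64.4 FPKM. The vesicle release factor unc-31 followed at 1.06 against 1.90 FPKM. The highest were cccp-1, pkc-1 and ric-19, genes of dense-core vesicle formation and release, and cccp-1 had 5.07 against 3.10 FPKM. The enzymes that make the first cuts were slightly lower as deposited, with egl-3 at 11.4 against 14.1 FPKM and egl-21 at 31.4 against 41.1 FPKM. After length centring the median of the list was -0.23, beside -0.16 for the flp genes, and 12 of 16 members were below 0.

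Receptors for flp peptides were mostly too low to compare in whole animals. Of 14 listed, 6 had a mean of at least 1 FPKM, of which 5 were lower by any amount, against 55.7% of all genes. Past 2-fold were 0 in either direction, against 11.3% of all genes lower and 10.5% higher. The median of the 6 was -0.25, which turned to 0.087 at an equal FPKM sum, where that of all genes was 0.34. The lowest was egl-6, the receptor of the flp-10 and flp-17 peptides, at 3.89 FPKM in the mutant library and 7.47 FPKM in N2. The one higher receptor was npr-5, at 4.31 against 3.65 FPKM. The npr-1 gene, the receptor of flp-18 and flp-21 peptides, was listed at 0.115 and 0.192 FPKM and was not compared.

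Markers of neurons in general lay on both sides of 0 as deposited. Of 16 measured markers, 8 were lower and 8 higher by any amount, with 0 past 2-fold, a median of -0.01 and a range from -0.61 for sng-1 to 0.75 for ehs-1. At an equal FPKM sum 2 were lower and 14 higher, with a median of 0.42, beside -0.20 for the flp genes under the same scaling. That scaling placed the median of all genes at 0.34, with 32.3% of them lower, so the marker median lay near that of all genes. The summed level of the marker list was 422 FPKM in the mutant library and 391 FPKM in N2, or 108.05% of the N2 value. Of the 30 measured flp genes, 16 lay below the lowest of these markers as deposited. The lower quartile of all genes was also -0.61, and genes of like length had a median of -0.52. The markers have longer transcripts, with a median of 2590 nt, and after length centring their median was 0.01 and 6 flp genes lay below the lowest of them, unc-104 at -0.65. The share of all genes below this value was not counted. In whole-animal RNA, fewer cells of a type and less RNA in each cell cannot be told apart.

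Other peptide genes had medians below 0 as deposited and under each scaling run. Of 39 measured nlp genes, which encode peptides of other families, 36 were lower by any amount, 9 of them by 2-fold or more, and 0 were 2-fold higher. Their median was -0.55. At an equal FPKM sum 22 were lower and 17 higher, with a median of -0.15, where 32.3% of all genes were lower. Of 26 measured insulin-like genes, 21 were lower, 12 of them by 2-fold or more, and 3 were 2-fold higher or beyond. Their median was -0.93. After centring by length the medians were -0.07 for the nlp and -0.39 for the insulin-like genes, beside -0.16 for the flp genes.

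**Figure D4:**
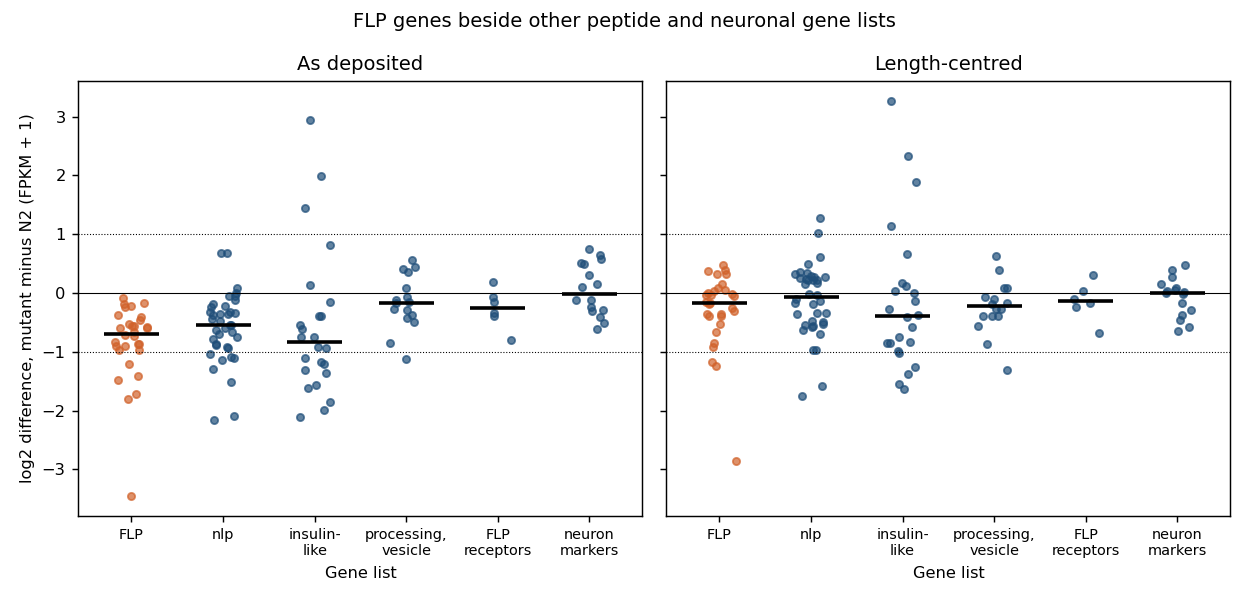
Differences of single genes (points; log2 of mutant over N2 FPKM, 1 added to each) for flp genes and for 5 other gene lists, as deposited (left) and after length centring (right), with a bar at the median of the genes drawn and dotted lines at 2-fold; only genes above 0.0001 FPKM in both libraries are drawn. The flp points are all below 0 on the left and on both sides of 0 on the right, and the neuron markers lie on both sides of 0 in each panel.

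The authors' own comparison singled out 1 member. The p-value of flp-6 in the authors' deposited table was 0.0012, with 0.431 as its q-value. For the other 30 flp genes the authors' deposited table held p-values of 0.0516 or more and q-values of at least 0.950852. A p-value under 0.05 was given there to 1.58% of all 46233 genes. In the authors' deposited shorter table of 715 genes, all with p-values of 0.0499 or less, flp-6 was the only flp gene. These p-values compare 1 library with 1 library and not the genotypes. Of the 46233 genes behind the share given, 13436 had a mean of at least 1 FPKM.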

How the data were processed

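Total RNA of 2 libraries, 1 per genotype, was measured. Per the submitters' processing notes, TopHat, Cufflinks and genome build WBcel235 were involved; versions are not stated. The deposited FPKM values are normalized by the authors for transcript length and library size, per the file headers, with 0.0001 as a placeholder. Of the 13436 genes compared, 158 had the placeholder in the mutant library and 162 in N2. Whether it stands for 0 in each case was not tested. The deposited ratio and log2 ratio are those of the mutant over N2 FPKM, and the p-value and q-value come from the authors' comparison of the libraries. The depth is unknown, so no counting interval is given.

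Differences, the mean of at least 1 FPKM and the 2-fold rule are as stated above, and no test was made. Coordinates and lengths come from the Ensembl annotation of WBcel235, release 115, which held 31 of 31 flp identifiers, and 27 of them lay inside the deposited locus field within 60 bases. Length bins used 12999 genes above 0.0001 FPKM in both libraries. The members and gene lists were chosen with earlier results of these data known. Every flp gene is named, and of the pathway lists at most the 3 highest and lowest, besides egl-3, egl-21 and npr-1, named for their roles. Of 112 listed genes, opt-2 and rund-1 were not found by symbol. The marker lists for intestine, epidermis and germ line had medians of -0.15, -0.36 and -0.10 over 6, 5 and 10 measured genes. The intestinal protease asp-1 had the placeholder of 0.0001 FPKM as its mutant value, against 1961 FPKM in N2. Alternatives were other pseudocounts, filters, fold thresholds and scalings, and length centring. Only the length centring was tested on simulated data, with a straight-line trend in log length and no FPKM added. Calculations ran in Python 3.11.15 with pandas 2.3.3, numpy 2.4.6 and scipy 1.17.1, and plots in matplotlib 3.10.9.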

Additional observations from a re-analysis of the deposited data

How the results depend on the processing

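The direction of flp-6 and of the flp median held under each alternative run, from -2.74 (pseudocount 5) to -3.69 (pseudocount 0.1) for flp-6 and from -0.16 (length centring) to -0.73 (pseudocount 0.1) for the median. The number of flp genes at least 2-fold lower, 6 as reported, was 10 with a pseudocount of 0.1, 4 with one of 5, 3 after scaling the libraries to an equal FPKM sum (the same sum), 3 after length centring, 18 at a 1.5-fold and 1 at a 4-fold threshold, the last 2 by construction. Of all genes, 11.3% were at least 2-fold lower as reported, 14.2% with a pseudocount of 0.1 and 7.07% with one of 5. The share was 3.10% at the same sum, 3.16% after length centring, 26.3% at the 1.5-fold and 1.19% at the 4-fold threshold. Over all genes, the counts lower and higher were 1523 and 1406 as deposited, 417 and 2744 at the same sum, 847 and 1861 at the same upper quartile and 411 and 1415 after length centring. Rescaling to the same sum placed the median of all genes at 0.34, where it had been -0.10, and left 22 of 30 flp genes below 0, against 32.3% of all genes. At the same sum, values turned to 0.30 for flp-4, 0.41 for flp-10, 0.058 for flp-11, 0.019 for flp-13, 0.27 for flp-15, 0.14 for flp-25 and 0.19 for flp-34, and flp-7 stood at 0.0018. At the same upper quartile flp-4 turned to 0.032 and flp-10 to 0.13, and with the median of all genes set to 0 flp-10 turned to 0.013. Length centring turned flp-2 to 0.05, flp-4 to 0.39, flp-10 to 0.47, flp-11 to 0.16, flp-13 to 0.092, flp-15 to 0.32, flp-20 to 0.042, flp-25 to 0.37 and flp-34 to 0.32. The median of the processing genes turned to 0.24 at the same sum and 0.044 at the same upper quartile, and that of the receptors to 0.087 at the same sum. At the same upper quartile the median of all genes was 0.090. The neuronal marker median, near 0 as reported, turned to 0.014 with a pseudocount of 5, 0.072 without a filter, 0.42 at the same sum, 0.19 at the same upper quartile, 0.090 with the median set to 0 and 0.0087 after length centring. The values of single members, and the count lower by any amount, were examined under these settings after the data had been seen. The cause of these changes was not tested. No paired analysis was possible because each genotype has 1 library, and no replicate could be left out.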
